A study of Mus musculus with 6 samples.

Results

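Imprinted genes are read from only 1 of the parental copies, and 10 of them that act on growth are described here: Meg3, Rian, Mirg, H19 and Cdkn1c, which are expressed from the maternal copy, and Dlk1, Mest, Peg3, Plagl1 and Igf2, which are expressed from the paternal copy. The 10 were selected on the aged against young contrast of these same libraries, in which the lower Meg3 of aged mice was already known, so their age differences are given below as a description, without a test. Of the 10, 9 had a row among the 31053 genes of the counts, and Rian was not analysed here. The counts are single-cell RNA sequencing of stromal vascular cells from inguinal white adipose tissue (iWAT), the subcutaneous fat pad in which cold induces beige adipocytes, sorted to be live and depleted of CD45+ immune cells. All mice were male C57BL/6 with no transgene named, and all were first kept at 30 °C for 3 weeks. Young mice were 9 weeks and aged mice 57 weeks old, and at each age 1 library came from mice that stayed at 30 °C (thermoneutrality, TN), 1 from mice given 3 days at 6 °C (3D) and 1 from mice given 14 days at 6 °C (14D). That makes 6 libraries with 1 per age and temperature, so the age contrast sets 3 libraries against 3 with temperature in the fit, and p-values measure the spread between these libraries. Mice were C57BL/6JN or C57BL/6J from 2 suppliers, which group came from which is not given in the sources used here, and age and supplier cannot be told apart. The number of animals behind a library is not given either.

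Imprinted growth genes form a network in which paternally expressed genes mostly promote and maternally expressed genes mostly restrain fetal growth, and most are turned down across many organs after birth. In fat, Dlk1 (Pref-1) is the classic surface marker of preadipocytes, Mest marks expanding fat tissue, Cdkn1c encodes the cell cycle inhibitor p57, and Meg3, Rian and Mirg are long noncoding RNAs of the Dlk1-Dio3 locus that are also the hosts of a large cluster of microRNAs and small nucleolar RNAs. Peg3 and Plagl1 encode zinc finger factors, H19 is a noncoding RNA next to the growth factor gene Igf2, and both share enhancers. The parental copies could not be told apart in these counts, so every value below is the sum of both.

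On GRCm38, the build to which the authors aligned the reads, Meg3 lies at chr12:109541001-109571726 and Mirg at chr12:109729764-109749460, both on the + strand of chromosome 12, with Dlk1 upstream at chr12:109452823-109463336. H19 (chr7:142575529-142578143), Igf2 (chr7:142650766-142666816) and Cdkn1c (chr7:143458339-143461050) sit together at the end of chromosome 7 on the - strand, where Peg3 lies far away at chr7:6703892-6730431. Mest is at chr6:30723547-30748465 and Plagl1 at chr10:13060504-13131694, both on the + strand. These spans are from GENCODE, and the reads fall near the 3′ ends of the transcripts. Imprints are kept as methylation of CG pairs, so the RefSeq promoters (GRCm38.p6; 250 bases before and 50 after the start) of 4 members that were lower in aged mice in all 3 fibroblast-like classes are printed with CG in capitals (for Meg3 and Mest, the entry with the most CG).
Meg3, chr12:109540746-109541045 (+ strand): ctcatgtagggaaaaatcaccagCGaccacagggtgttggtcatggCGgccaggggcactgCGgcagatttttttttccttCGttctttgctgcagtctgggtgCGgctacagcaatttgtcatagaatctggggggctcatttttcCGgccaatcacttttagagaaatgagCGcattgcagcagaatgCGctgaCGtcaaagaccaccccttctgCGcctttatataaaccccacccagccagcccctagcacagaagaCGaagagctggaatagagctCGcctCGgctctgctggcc
Plagl1, chr10:13090582-13090881 (+ strand): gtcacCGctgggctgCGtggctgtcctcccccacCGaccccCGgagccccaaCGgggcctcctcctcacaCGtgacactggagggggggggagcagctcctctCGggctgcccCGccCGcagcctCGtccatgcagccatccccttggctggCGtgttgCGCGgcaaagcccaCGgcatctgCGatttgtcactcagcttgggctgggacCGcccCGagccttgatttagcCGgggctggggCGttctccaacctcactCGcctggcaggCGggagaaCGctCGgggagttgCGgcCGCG
Peg3, chr7:6730370-6730669 (- strand): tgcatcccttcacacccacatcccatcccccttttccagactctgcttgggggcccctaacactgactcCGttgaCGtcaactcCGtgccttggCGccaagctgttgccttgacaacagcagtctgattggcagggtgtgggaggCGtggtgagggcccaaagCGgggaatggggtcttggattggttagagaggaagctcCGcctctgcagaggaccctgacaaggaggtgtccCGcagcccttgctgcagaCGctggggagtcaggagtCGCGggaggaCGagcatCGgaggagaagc
Mest, chr6:30737800-30738099 (+ strand): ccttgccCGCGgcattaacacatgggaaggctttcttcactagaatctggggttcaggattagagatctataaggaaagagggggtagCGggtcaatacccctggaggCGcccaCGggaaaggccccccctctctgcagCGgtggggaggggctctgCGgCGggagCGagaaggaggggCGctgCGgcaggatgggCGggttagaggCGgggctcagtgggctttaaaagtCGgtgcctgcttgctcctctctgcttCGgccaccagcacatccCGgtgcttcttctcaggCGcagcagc
They hold 13, 26, 13 and 17 CG pairs in the order printed, against a median of 7 over the 32851 promoters of the table. Of all those promoters, 16.9% had as many CG pairs as that of Plagl1 or more, and 37.9% had as many as those of Meg3 and Peg3 or more. The choice of entry raises the counts of Meg3 and Mest, since another Meg3 entry holds 1 CG pair and another Mest entry 8. Mirg was lower in the 3 classes too, and its entry, not printed, holds 10. The Peg3 promoter also holds GGGGCCCC, letters the Plagl1 protein can bind and the same on both strands, which 1.08% of all promoters hold. The table has 14 promoter entries for 8 members, and 1 of the entries holds these letters. Methylation was not measured in these libraries.

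Of the members, 4 hold a single microRNA hairpin each in RefSeq: Meg3, H19, Mest and Igf2. Those of the first 3 are shown here, because the counts see the host only and Igf2 was at or near 0. The seed, bases 2 to 8, is in capitals.
miR-770-5p (Meg3): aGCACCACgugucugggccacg
miR-770-3p (Meg3): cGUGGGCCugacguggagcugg
miR-675-5p (H19): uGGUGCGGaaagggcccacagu
miR-675-3p (H19): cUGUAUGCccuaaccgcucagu
miR-335-5p (Mest): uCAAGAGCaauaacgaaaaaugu
miR-335-3p (Mest): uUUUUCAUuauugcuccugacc
No seed is shared among these 6 arms. The span of Mirg holds 14 further hairpins, and 39 more lie between the end of Meg3 and the start of Mirg. MicroRNAs have no poly(A) tail and were not measured.

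After filters on genes per cell and depth, 57326 of 68103 barcodes were kept (27662 young and 29664 aged). Cells were grouped by clustering without the members, and each cluster was named from marker genes only as far as they carried it. The Dpp4+ fibroblast-like class held 21903 cells, the Icam1+ preadipocyte-like class 19721, the Cd142+ fibroblast-like class 4392, the endothelial-like class 4559 and the SMC/pericyte-like class (smooth muscle cells and pericytes) 1370. Schwann-like (391 cells) and immune-like (399 cells) classes were too small for a test. Of the Icam1+ class, 1 cluster of 6809 cells showed only 3 of the 10 Icam1+ markers, and 1 SMC/pericyte-like cluster of 875 cells showed 9 of 10 endothelial markers beside 10 of 10 of its own. An unnamed cluster of 4574 cells with a median of 1397 UMIs came mostly from the aged 14D library and was left out. That library stood apart in depth, with a median of 2742 UMIs per kept cell against 6726 to 9904 in the others. Pairs of libraries shared 30 to 44 barcodes. UMIs were summed per class and library, scaled to CPM (counts per 1e6) with edgeR's TMM factors, and tested with its quasi-likelihood test, with p-values adjusted over all genes tested in a comparison.

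Meg3, the maternally expressed long noncoding RNA of the Dlk1-Dio3 locus, was lower in aged than in young mice in all 3 fibroblast-like classes. In Dpp4+ fibroblast-like cells it stood at 1961, 2239.9 and 2378 CPM in the TN, 3D and 14D libraries of young mice and 524, 538 and 597 CPM in those of aged mice. The ages did not overlap, and within an age the 3 temperatures lay close together, at 2193 ± 213 CPM in young and 553 ± 38.7 CPM in aged libraries (mean ± SD, n = 3 each). The log2 fold change, aged over young, was -1.98 (SE 0.071), a 3.95-fold difference. Icam1+ preadipocyte-like cells held 1106, 904 and 855 CPM in the TN, 3D and 14D libraries of young mice and 303, 211 and 164 CPM in those of aged mice, and Cd142+ fibroblast-like cells held 1027, 1007 and 971 CPM (young TN, 3D and 14D) and 259.8, 222 and 229.7 CPM (aged TN, 3D and 14D). The summed level of the 10 Dpp4+ markers in the Dpp4+ class was lower in aged mice too, at 7735 to 9067 CPM in young and 6812 to 7160.0 CPM in aged libraries, and its part in the Meg3 difference was not tested. The Icam1+ and Cd142+ classes started from a lower level than the Dpp4+ class and ended lower too, with log2 fold changes of -2.09 (SE 0.10) and -2.06 (SE 0.084).

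Mirg, the noncoding RNA at the far end of the same locus, went with it. Its level in Dpp4+ fibroblast-like cells was 16.0, 16.8 and 16.7 CPM (young TN, 3D and 14D) and 3.72, 4.51 and 4.01 CPM (aged TN, 3D and 14D), without overlap, and the log2 fold change was -2.01 (SE 0.099). In Icam1+ preadipocyte-like cells it was 12.04, 7.49 and 6.55 CPM (young TN, 3D and 14D) and 1.55, 1.27 and 1.46 CPM (aged TN, 3D and 14D), and in Cd142+ fibroblast-like cells 12.01, 9.49 and 10.2 CPM (young TN, 3D and 14D) and 4.39, 1.15 and 3.22 CPM (aged TN, 3D and 14D), again without overlap. The log2 fold changes there were -2.60 (SE 0.17) and -1.91 (SE 0.28).

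At equal depth most aged fibroblast-like cells had no Meg3 UMI. When every cell was drawn down to 2000 UMIs, 86.6 to 89.1% of Dpp4+ fibroblast-like cells had a Meg3 UMI in the young libraries and 30.4 to 39.4% in the aged ones. Without the draw the shares were 97.0 to 97.3% and 40.5 to 50.4%. The cells that still had one held 4.61 to 5.20 Meg3 UMIs on average in young and 3.05 to 3.88 in aged libraries. The share of cells with Meg3 was thus further apart between the ages than the level in the cells that had it. For Icam1+ preadipocyte-like cells the shares were 55.2 to 63.3% and 14.6 to 18.6%, with 3.01 to 3.49 and 2.20 to 3.45 UMIs per cell that had any. For Cd142+ fibroblast-like cells they were 59.7 to 66.3% and 13.0 to 18.7%. Immune-like cells, a type not known for Meg3 whose share stands here for free RNA, had a Meg3 UMI in 14.9 to 27.7% of young and 3.85 to 11.6% of aged cells, at median depths before the draw of 5727 to 7579.5 UMIs against 6993 to 9754 in the Dpp4+ class and 7353 to 11146 in the Icam1+ class. The aged Dpp4+ shares were far above this background. The aged Icam1+ and Cd142+ shares were above it in each library, though by less. In CPM, immune-like cells held Meg3 at 312, 230 and 496 (young TN, 3D and 14D) and 132, 63.6 and 135 (aged TN, 3D and 14D). The 95% exact Poisson interval of the aged 14D value, 103 to 175 CPM, held the Icam1+ level of that library, 164 CPM. The other aged Icam1+ and Cd142+ levels lay above the interval of their library. The part of free RNA in the Meg3 levels was not tested.

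Mirg UMIs were found almost only in cells that also had Meg3. Among aged Dpp4+ fibroblast-like cells with at least 2000 UMIs, the 935, 1654 and 1505 cells with a Meg3 UMI (TN, 3D and 14D) held 63, 120 and 79 Mirg UMIs. The 1371, 2143 and 1421 cells without one held 1, 4 and 1, at nearly the same median depth (7241, 7143 and 7330.0 against 7237, 6830.0 and 6765 UMIs). Mirg CPM in aged cells with Meg3 was 9.03, 9.73 and 7.32. That is above the class as a whole, which follows from nearly all Mirg UMIs lying in these cells. Aged Icam1+ preadipocyte-like cells gave 48, 34 and 21 Mirg UMIs in cells with Meg3 and 1, 3 and 3 in the far more numerous cells without. Members on other chromosomes were less unequal. In the same aged Dpp4+ cells, Plagl1 CPM in cells with Meg3 was 1.12, 1.85 and 1.65 times that in cells without, and Peg3 CPM 1.96, 1.63 and 1.33 times. Ndn, a paternally expressed gene of chromosome 7 taken as a reference, gave 0.932, 0.976 and 0.994. Grb10 gave 0.93, 0.982 and 0.991 and Mest 0.952, 0.69 and 0.997. Cdkn1c gave 1.21, 1.17 and 1.26, and Slc38a4, another imprinted gene, 1.95, 1.32 and 1.30. Gpc3, which is not imprinted, gave 1.42, 1.44 and 1.22, so an excess in cells with Meg3 was not particular to imprinted genes. In aged Cd142+ cells (TN, 3D and 14D) the ratios were 3.90, 4.96 and 2.08 for Peg3 and 3.00, 2.18 and 2.57 for Plagl1. Cdkn1c gave 2.36, 2.01 and 2.33 there, Gpc3 2.37 and 2.69 (TN and 3D), and Ndn 0.827, 0.889 and 0.806. Median depth there was 7123, 6677 and 3636 UMIs in cells with Meg3 and 5544, 5850 and 3898 in cells without. This split was chosen after its values were seen. It compares cells of the same libraries and was not tested. Meg3 and Mirg may be parts of 1 long transcript, and these counts cannot tell reads of a shared transcript from those of separate ones.

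**Figure D1:**
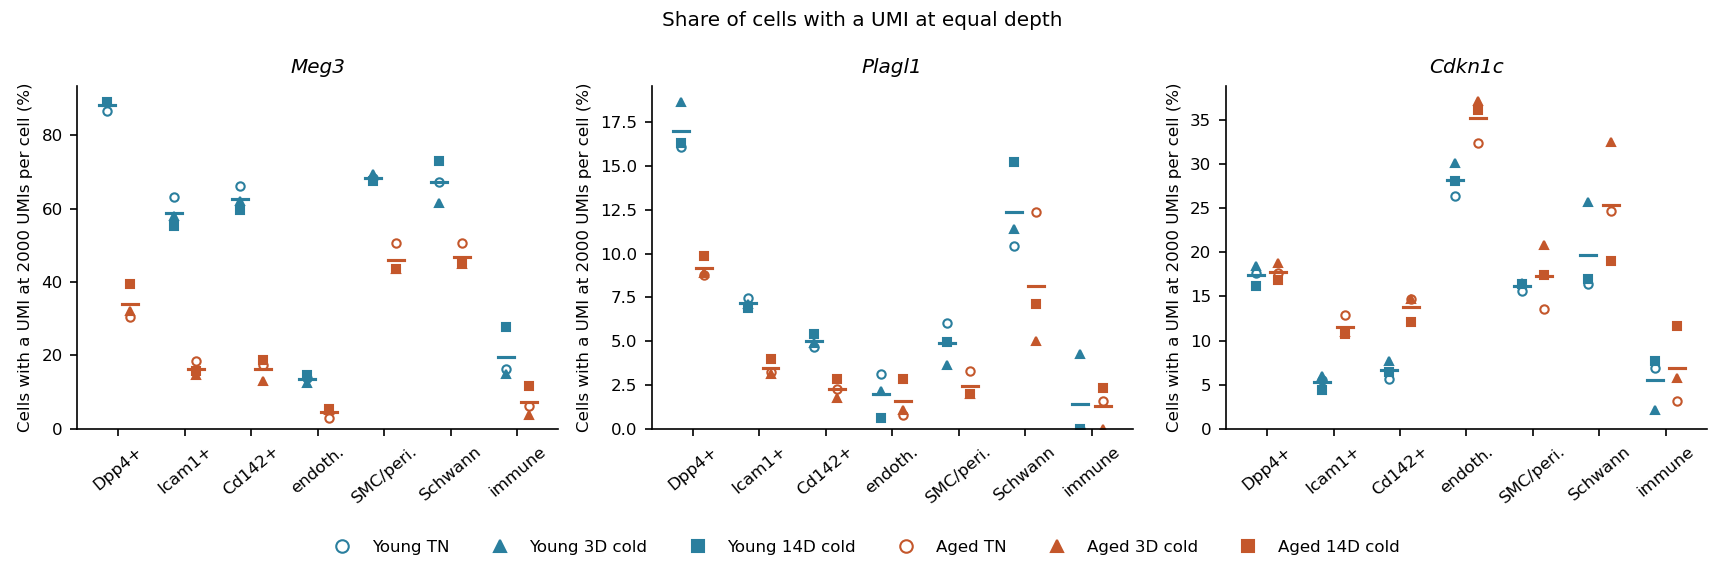
Share of cells with at least 1 UMI of Meg3, Plagl1 or Cdkn1c after each cell was drawn down to 2000 UMIs (y axis, percent of cells), by cell class (x axis); each point is a library, blue for young and orange for aged, and each short line the mean of 3 libraries. For Meg3 the young Dpp4+ fibroblast-like points lie at 86.6 to 89.1% and the aged ones at 30.4 to 39.4%, and for Cdkn1c the Icam1+ points lie at 4.45 to 5.95% in young and 10.8 to 12.9% in aged libraries.

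H19, the noncoding RNA beside Igf2, was low in the tested classes and lower still in aged fibroblast-like cells. Schwann-like cells held 40.6, 4.74 and 24.0 CPM (young TN, 3D and 14D) on 2 to 15 UMIs per library, and 0 in each aged library. Immune-like cells held 0, 2.58 and 15.5 CPM (young TN, 3D and 14D) on 0 to 8 UMIs, and 0 in each aged library. Their young 14D value was above the Icam1+ and Dpp4+ levels of that library. The part of free RNA in the H19 levels was not tested. Icam1+ preadipocyte-like cells held 9.86, 2.94 and 11.3 CPM in the TN, 3D and 14D libraries of young mice and 0.285, 1.44 and 0.974 CPM in those of aged mice, and Dpp4+ fibroblast-like cells held 4.99, 3.64 and 5.11 CPM (young TN, 3D and 14D) and 1.97, 0.291 and 0.763 CPM (aged TN, 3D and 14D). The ages did not overlap in either class, with log2 fold changes of -2.97 (SE 0.55) and -2.33 (SE 0.31). Over the alternatives these ran from -4.25 (without the young or the aged 3D library) to -2.17 (without the young or the aged TN library), and from -3.10 (without the young or the aged TN library) to -1.21 (equal cells drawn to 2000 UMIs). In the smaller of the 2 large Dpp4+ clusters the ages overlapped, with 1.99 CPM in the young 3D and 4.44 CPM in the aged TN library. Its UMIs sat in few cells: in young Icam1+ libraries 47, 31 and 71 cells (TN, 3D and 14D) held them all, 1 of them up to 86 UMIs, and in aged ones 5, 10 and 10. In Cd142+ fibroblast-like cells 21 UMIs were seen over the young libraries and 0 over the aged ones. Against the floor of 3 counts that a 0 allows over the aged group, that is at least 4.84-fold lower. Counting error alone is covered by such floors.

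Mest, Peg3 and Plagl1, all paternally expressed, were lower in aged fibroblast-like cells as well. Mest, which encodes a hydrolase-like protein of the endoplasmic reticulum, stood at 62.5, 28.5 and 36.9 CPM in the TN, 3D and 14D libraries of young mice and 11.95, 5.76 and 5.02 CPM in those of aged mice in Cd142+ fibroblast-like cells, a log2 fold change of -2.44 (SE 0.14). Icam1+ preadipocyte-like cells held 40.5, 18.9 and 23.1 CPM (young TN, 3D and 14D) and 12.6, 4.99 and 4.201 CPM (aged TN, 3D and 14D) (log2 fold change -1.94, SE 0.13). Both classes kept the ages apart although young values spread with temperature. In Dpp4+ fibroblast-like cells Mest was scarce, at 3.26, 3.01 and 3.49 CPM (young TN, 3D and 14D) and 1.45, 0.801 and 1.53 CPM (aged TN, 3D and 14D) (log2 fold change -1.40, SE 0.20). Immune-like cells held 7.61, 0 and 9.69 CPM (young TN, 3D and 14D) and 2.28, 0 and 0 CPM (aged TN, 3D and 14D), on 0 to 5 UMIs per library. The Dpp4+ level was thus not told apart from free RNA.

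Peg3 was at 20.9, 24.5 and 21.4 CPM in the TN, 3D and 14D libraries of young mice and 4.41, 6.33 and 6.92 CPM in those of aged mice in Dpp4+ fibroblast-like cells, with a log2 fold change of -1.92 (SE 0.11). Levels in Icam1+ preadipocyte-like cells were 42.9, 43.0 and 57.6 CPM (young TN, 3D and 14D) and 14.5, 17.5 and 21.7 CPM (aged TN, 3D and 14D) (log2 fold change -1.40, SE 0.076), and in Cd142+ fibroblast-like cells 47.5, 76.3 and 99.7 CPM (young TN, 3D and 14D) and 17.8, 22.8 and 20.4 CPM (aged TN, 3D and 14D) (log2 fold change -1.79, SE 0.13). No aged library reached the lowest young one in these classes. Immune-like cells, read above as a background of free RNA, held Peg3 at 9.14, 20.7 and 23.3 CPM (young TN, 3D and 14D). Aged ones held 0, 2.45 and 6.88 CPM (TN, 3D and 14D), all on 0 to 12 UMIs per library. This was 84.5% (young 3D), 108% (young 14D) and 99.5% (aged 14D) of the Dpp4+ level, and less in the other libraries. The part of free RNA in the Dpp4+ difference was not tested. Plagl1 (Zac1), a zinc finger factor that slows cell division, varied little among the libraries of an age. In Dpp4+ fibroblast-like cells it was at 121, 130.4 and 126 CPM (young TN, 3D and 14D) and 69.2, 64.9 and 69.1 CPM (aged TN, 3D and 14D). Means were 126 ± 4.46 CPM in young and 67.7 ± 2.45 CPM in aged Dpp4+ fibroblast-like cells, 47.5 ± 0.774 and 19.5 ± 0.642 CPM in Icam1+ preadipocyte-like cells, and 35.8 ± 2.89 and 12.4 ± 0.623 CPM in Cd142+ fibroblast-like cells (mean ± SD, n = 3 libraries per age). The log2 fold changes in that order were -0.89 (SE 0.059), -1.26 (SE 0.064) and -1.51 (SE 0.13). Immune-like cells held Plagl1 at 10.7, 15.5 and 13.6 CPM (young TN, 3D and 14D) and 6.85, 7.34 and 18.3 CPM (aged TN, 3D and 14D), on 3 to 8 UMIs per library. The aged 14D value was above the Cd142+ level of that library, 12.5 CPM, and the others were below theirs. The part of free RNA in the Plagl1 levels, and in class differences that use them, was not tested.

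Cdkn1c went the other way, and not in every class. This maternally expressed inhibitor of cyclin-dependent kinases was at 31.4, 31.7 and 24.2 CPM in the TN, 3D and 14D libraries of young mice and 71.5, 65.8 and 66.4 CPM in those of aged mice in Icam1+ preadipocyte-like cells. All aged libraries lay above all young ones, with means of 29.1 ± 4.23 and 67.9 ± 3.13 CPM (n = 3 each) and a log2 fold change of 1.25 (SE 0.083). In Cd142+ fibroblast-like cells it was 45.4, 53.3 and 35.9 CPM (young TN, 3D and 14D) and 88.8, 88.3 and 72.0 CPM (aged TN, 3D and 14D), again apart, with 0.91 (SE 0.093). Summed markers moved with age in this class too and their part was not tested: its own 8 Cd142+ markers were at 3469 to 4170.0 CPM in young and 2874 to 3396 CPM in aged libraries, the 10 Icam1+ markers at 4894 to 5193 CPM in young and 3431 to 4266 CPM in aged libraries, and the 10 endothelial markers at 53.5 to 55.8 CPM in young and 59.7 to 92.1 CPM in aged libraries. In the Icam1+ class the summed Icam1+ markers overlapped between the ages. In Dpp4+ fibroblast-like cells Cdkn1c was level, at 106, 109 and 102 CPM (young TN, 3D and 14D) and 110.4, 106 and 101 CPM (aged TN, 3D and 14D). The log2 fold change there was 0.0012 (SE 0.053), and the ages overlapped. Cells with a Cdkn1c UMI at equal depth made up 4.45 to 5.95% of young and 10.8 to 12.9% of aged Icam1+ preadipocyte-like cells, but 16.1 to 18.5% and 16.8 to 18.8% of Dpp4+ fibroblast-like cells. Immune-like cells gave 2.13 to 7.69% and 3.17 to 11.6%, which overlap the Icam1+ shares, so those are not read as a share of expressing cells. In CPM, immune-like cells held 25.9, 12.9 and 42.6 (young TN, 3D and 14D) and 22.8, 78.3 and 34.4 (aged TN, 3D and 14D). That is above the Icam1+ value in the young 14D and aged 3D libraries and below it in the others. The part of free RNA in the Icam1+ difference, and in class differences that use it, was not tested.

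**Figure D2:**
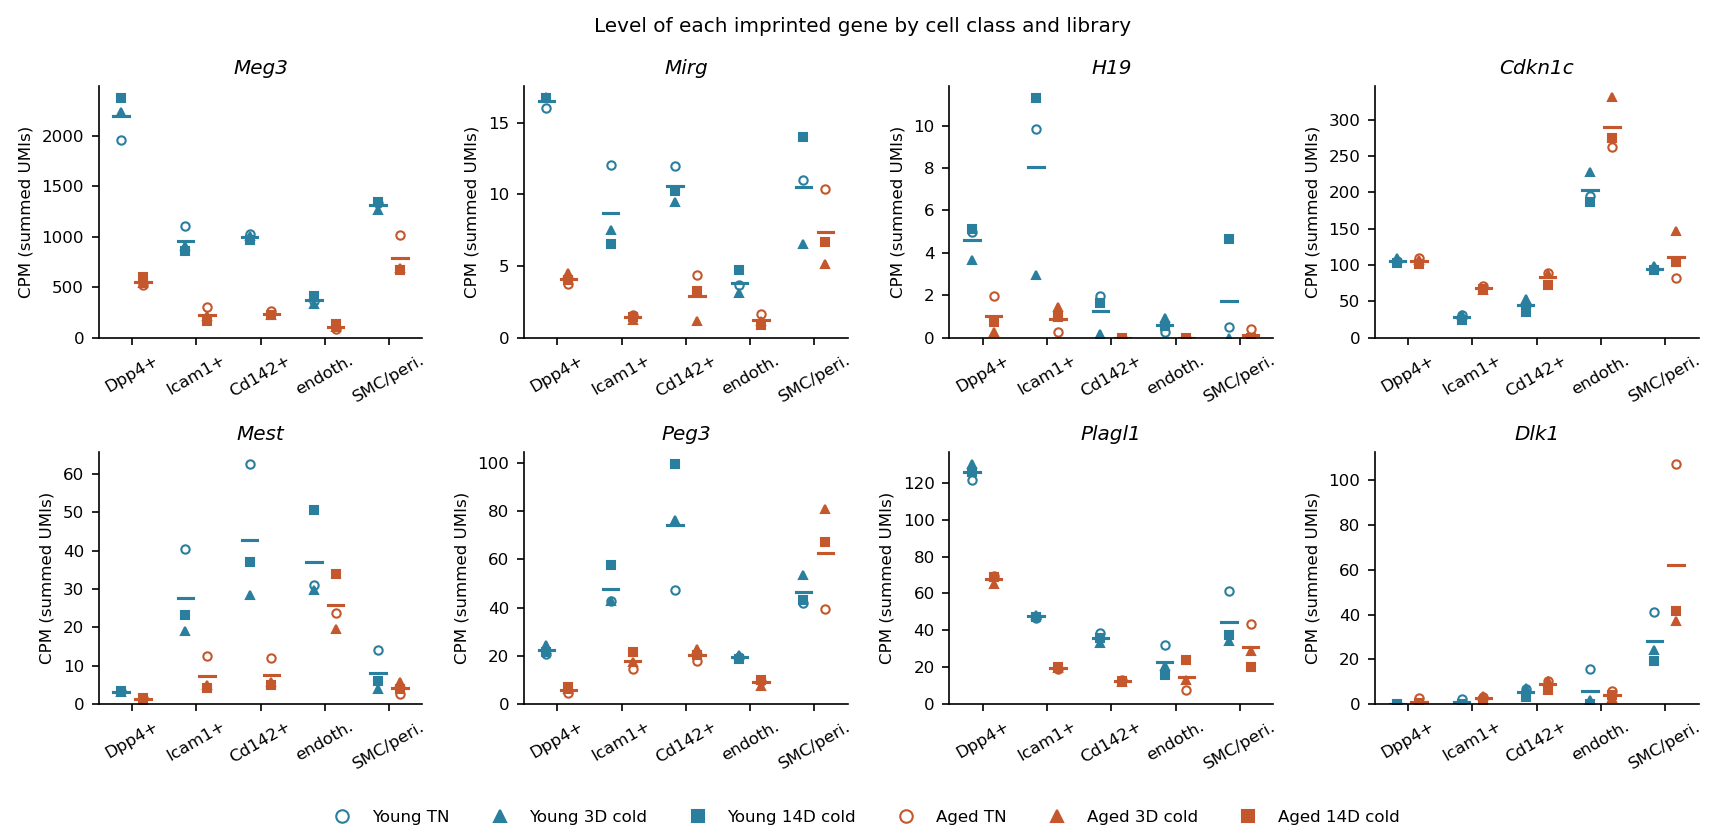
CPM of summed UMIs (y axis, linear from 0) for 8 members in the 5 tested cell classes (x axis); each point is a library, blue for young and orange for aged (circle TN, triangle 3D, square 14D), and each short line the mean of 3 libraries. In the 3 fibroblast-like classes the aged points of Meg3, Mirg, Mest, Peg3 and Plagl1 lie below the young ones, and those of Cdkn1c lie above them in the Icam1+ and Cd142+ classes and level with them in the Dpp4+ class.

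Dlk1, the preadipocyte antigen whose gene shares its imprinting centre with Meg3, was nearly silent in the fibroblast-like classes at both ages. Icam1+ preadipocyte-like cells held 2.19, 0.114 and 0.129 CPM in the TN, 3D and 14D libraries of young mice and 3.14, 3.45 and 1.22 CPM in those of aged mice. The young TN value came from 11 cells, 1 of which held 52 of its 67 UMIs. The log2 fold change of 2.00 (SE 0.62) was 4.24 without either TN library and 1.11 without the young 3D library. The Dpp4+ value of the aged TN library, 2.50 CPM, was likewise 43 UMIs of which 1 cell held 39. Cd142+ fibroblast-like cells held 6.71, 6.96 and 3.05 CPM (young TN, 3D and 14D) and 10.5, 10.2 and 6.09 CPM (aged TN, 3D and 14D), which overlapped (log2 fold change 0.69, SE 0.21). Among the tested classes its higher levels were in SMC/pericyte-like cells, at 41.0, 24.2 and 19.3 CPM (young TN, 3D and 14D) and 107, 37.3 and 41.8 CPM (aged TN, 3D and 14D) (log2 fold change 1.11, SE 0.18), where the aged TN library was highest with UMIs in 59 of 416 cells. Igf2, the fetal growth factor read from the paternal copy next to H19, was at or near 0 throughout, with at most 4 UMIs in any class over the 3 libraries of an age, and no fold change is given. An antisense gene, Igf2os, overlaps it and is counted apart.

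Outside the fibroblast-like classes the picture was mixed. In SMC/pericyte-like cells Meg3 was at 1334, 1260.2 and 1345 CPM in the TN, 3D and 14D libraries of young mice and 1015, 690.3 and 670.0 CPM in those of aged mice, so that the young libraries lay above those of the Icam1+ and Cd142+ classes, and its log2 fold change was -0.75 (SE 0.14). Mirg there was 11.0, 6.54 and 14.0 CPM (young TN, 3D and 14D) and 10.4, 5.11 and 6.64 CPM (aged TN, 3D and 14D) and overlapped (log2 fold change -0.42, SE 0.34). Peg3 stood at 42.0, 53.7 and 43.3 CPM (young TN, 3D and 14D) and 39.3, 81.1 and 67.4 CPM (aged TN, 3D and 14D), overlapping too, with a log2 fold change of 0.38 (SE 0.17). At equal depth 67.7 to 69.4% of young and 43.6 to 50.6% of aged SMC/pericyte-like cells had a Meg3 UMI. Plagl1 and Cdkn1c also overlapped between the ages in this class, with log2 fold changes of -0.51 (SE 0.18) and 0.19 (SE 0.16).

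In endothelial-like cells Meg3 was 361, 339 and 409 CPM (young TN, 3D and 14D) and 81.8, 106 and 136 CPM (aged TN, 3D and 14D) (log2 fold change -1.81, SE 0.11) without overlap. Expressed per library, these levels were 15.1 to 22.8% of those in the Dpp4+ class. The summed level of the 10 Dpp4+ fibroblast markers, all of them above 0 in endothelial-like cells, was 11.8 to 20% of that in the Dpp4+ class, at 1331 to 1784 CPM in young and 801 to 1255 CPM in aged libraries. Meg3 in endothelial-like cells stood at about the ratio of the fibroblast markers in the same libraries, and their part in it was not tested. Immune-like cells gave 10.3 to 25.3% for Meg3 and 7.31 to 18.4% for the markers. SMC/pericyte-like cells, by contrast, held 56.3 to 194% of the Dpp4+ level of Meg3 with 13.1 to 32.9% of the markers. Cdkn1c was higher in endothelial-like cells than in the Dpp4+ class at both ages, at 195, 228 and 187 CPM (young TN, 3D and 14D) and 262, 331 and 275 CPM (aged TN, 3D and 14D), without overlap and with a log2 fold change of 0.51 (SE 0.078). Peg3 (log2 fold change -1.11, SE 0.18) was lower without overlap, and Mest (log2 fold change -0.51, SE 0.12) and Plagl1 (log2 fold change -0.79, SE 0.37) overlapped.

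Schwann-like cells, with 40 to 99 cells per library, were not tested. Their Meg3 level was 1369.7 (1253 to 1494), 1218 (1116 to 1329) and 1244 (1119 to 1378) CPM in young TN, 3D and 14D libraries (95% exact Poisson interval, counting error only) and 977 (883 to 1079), 447 (351 to 563) and 767 (645 to 905) CPM in aged ones. All aged intervals lay below all young ones, with 61.4 to 72.9% of young and 45.0 to 50.6% of aged cells holding a Meg3 UMI at equal depth. Dlk1 was higher here than in the SMC/pericyte-like class in each library, though the interval of the aged 3D library holds that class's value, and ran from 49.0 (21.2 to 96.6) to 249 (203 to 303) CPM, both in aged libraries. The young Dlk1 values of 154, 59.3 and 130.2 CPM lay between them. Gated one by one on markers, 161 of the 391 Schwann-like cells fell in the Schwann class, 161 in the Cd142+ and 44 in the Icam1+ class. Their summed Icam1+ markers were 4255 to 5036 CPM in young and 2630 to 2871 CPM in aged libraries. The Cd142+ markers were 1483 to 1953 and 1247 to 1367 CPM, while the Schwann and Dpp4+ markers overlapped. The part of fibroblast-like cells in these values was not tested.

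Counted over the members, 6 of the 7 that passed the filter on low counts in Dpp4+ fibroblast-like cells were lower in aged mice without overlap, 6 of 8 in Icam1+ preadipocyte-like cells, 5 of 7 in Cd142+ fibroblast-like cells, 3 of 7 in endothelial-like and 1 of 6 in SMC/pericyte-like cells. At an adjusted p under 0.05 in the aged against young test, 6, 7, 7, 3 and 0 members passed in that order, where 18.2%, 13.3%, 11.8%, 2.13% and 0.161% of all genes tested did. These shares belong to the test, and no share of all genes is given for the counts without overlap. Nothing is read from either set of counts, since the genes were picked on this contrast. Median log2 fold changes of maternally expressed members were -2.00, -2.35 and -1.91 in the Dpp4+, Icam1+ and Cd142+ classes, and those of paternally expressed members -1.40, -1.33 and -1.65, against medians over all genes within 0.01 of 0. Maternally and paternally expressed members were both among the lower ones, and each side held 1 member with a higher mean in aged mice in the Icam1+ and Cd142+ classes, Cdkn1c on the maternal and Dlk1 on the paternal side.

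**Figure D3:**
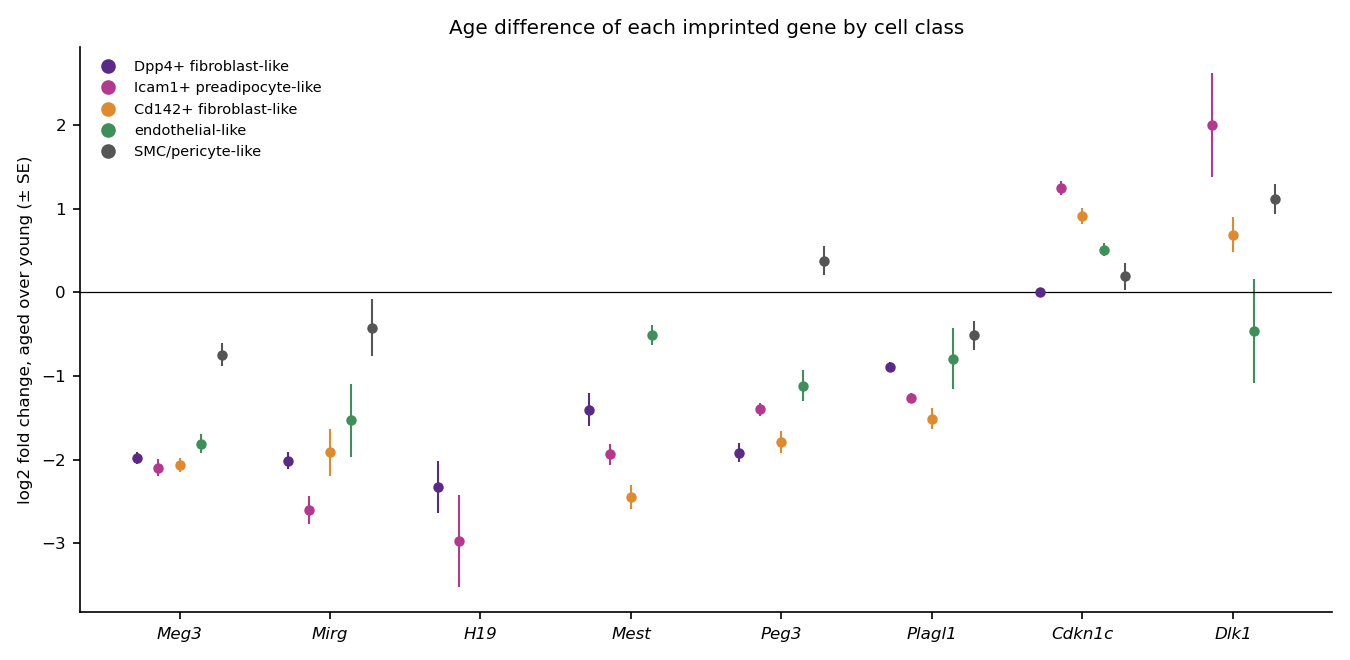
Log2 fold change, aged over young, with its standard error (y axis) for 8 members (x axis) in each class where the member passed the filter on low counts; colours mark the classes. Meg3 lies between -2.09 and -1.98 in the 3 fibroblast-like classes and at -0.75 in SMC/pericyte-like cells, and Cdkn1c runs from 0.0012 in the Dpp4+ class to 1.25 in the Icam1+ class.

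Without the shallow aged 14D library, the log2 fold changes of Meg3 were -1.98, -1.97 and -2.07 in the Dpp4+, Icam1+ and Cd142+ classes, those of Mirg -1.99, -2.77 and -2.01, those of Mest -1.53, -1.78 and -2.33, those of Peg3 -2.07, -1.42 and -1.58, those of Plagl1 -0.91, -1.30 and -1.51, and those of Cdkn1c 0.01, 1.13 and 0.86. H19 gave -2.13 and -2.75 in the Dpp4+ and Icam1+ classes. With equal numbers of cells per library, each drawn to 2000 UMIs, Meg3 gave -1.97, -2.10 and -2.22, Cdkn1c 0.075, 1.24 and 0.95, Mirg -2.33, -2.87 and -2.49, Peg3 -1.72, -1.57 and -2.16, and Plagl1 -0.92, -1.20 and -1.14. Mest moved to -0.77 in the Dpp4+ class and was -2.22 and -2.75 in the others, and H19 was -1.21 and -3.39 in the Dpp4+ and Icam1+ classes. The Plagl1 value of endothelial-like cells depended on both: it was -1.42 without the aged 14D library and 0.56 with cells drawn down, a turned sign.

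Whether an age difference was the same in 2 classes was tested as an interaction over 12 sums, with library as a block. The choice of the genes used their age effect but not its difference between classes, and the tests are not fully independent of it. Cdkn1c differed most clearly: its age effect was higher in the Icam1+ than in the Dpp4+ class by 1.25 (SE 0.088, adjusted p = 0.00032) on the log2 scale and higher in the Cd142+ than in the Dpp4+ class by 0.90 (SE 0.11, adjusted p = 0.00012). Both calls held in all 7 alternatives, with adjusted p up to 0.0038 and 0.0014. The Plagl1 age effect was more negative in the Icam1+ than in the Dpp4+ class, by -0.37 (SE 0.072, adjusted p = 0.033) and more negative in the Cd142+ class, by -0.63 (SE 0.13, adjusted p = 0.016). These 2 calls were weak: the first was lost in all 7 alternatives, at adjusted p from 0.071 to 0.27, 6 of which leave out 1 library. The second was lost without the young TN (adjusted p = 0.055), young 14D (0.071), aged 3D (0.11) or aged 14D (0.055) library and with cells gated one by one on markers (0.65). That gate also takes in cells of the unnamed clusters, most of them shallow cells of the aged 14D library. Of the 8 members tested, 2 passed in each comparison, where 2.02% and 2.12% of all genes did, and none passed between the Cd142+ and Icam1+ classes, where 2.08% did. Meg3 did not pass in any of the 3, at -0.11 (SE 0.24, adjusted p = 0.88), -0.089 (SE 0.11, adjusted p = 0.82) and 0.033 (SE 0.13, adjusted p = 0.96) in that order.

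Against the Icam1+ class, SMC/pericyte-like cells differed for Meg3 by 1.33 (SE 0.15, adjusted p = 0.0015) and for Peg3 by 1.78 (SE 0.23, adjusted p = 0.0061), so the age effects of both were higher in SMC/pericyte-like cells. These were 2 of 8 members, where 0.188% of all genes passed. The genes were picked with the lower Meg3 of aged fibroblast-like cells known, which favours such a gap in advance. The p-values and the count are therefore not independent of that choice. The Meg3 difference held in all 7 alternatives (adjusted p up to 0.01). The Peg3 difference was lost without the young 14D library (1.60, adjusted p = 0.058) and with cells gated one by one (1.37, adjusted p = 0.11). Mirg differed by 2.12 (SE 0.44, adjusted p = 0.098), which did not pass. Endothelial-like cells differed from the Icam1+ class for Cdkn1c, by -0.74 (SE 0.14, adjusted p = 0.022), 1 of 8 members where 0.901% of all genes passed. That call was lost without the young 3D (0.083), young 14D (0.14) or aged 14D (0.071) library and with cells gated one by one (-0.94, adjusted p = 0.0996).

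Temperature was not used to choose the genes, and for most members no difference between TN, 3D and 14D passed the test across both ages. Mest and Peg3 did so in the Icam1+ and Cd142+ classes, 2 of 8 and 2 of 7 members, where 4.45% and 2.72% of all genes tested passed. Mest fell in the cold. In Icam1+ preadipocyte-like cells it changed by -1.22 (SE 0.15) after 3 days and -1.07 (SE 0.15) after 14 days against TN (adjusted p = 0.0082 over the 3 groups), and in Cd142+ fibroblast-like cells by -1.13 (SE 0.15) and -0.84 (SE 0.16) (adjusted p = 0.0018). Its levels, given above, were highest in the TN library of each age in both classes. Without the young TN library, the Cd142+ call was lost (-0.95 after 14 days). With equal cells drawn to 2000 UMIs it was lost too (-0.70 after 14 days, adjusted p = 0.11 over the 3 groups). In the Icam1+ cluster with 3 markers alone the change after 14 days was -0.59 (adjusted p = 0.059 over the 3 groups).

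Peg3 rose. In Icam1+ preadipocyte-like cells it changed by 0.12 (SE 0.091) after 3 days and 0.50 (SE 0.092) after 14 days (adjusted p = 0.04), and in Cd142+ fibroblast-like cells by 0.57 (SE 0.15) and 0.83 (SE 0.16) (adjusted p = 0.02). In the Cd142+ class the rise was mostly in young mice. Without the young TN library it was 0.44 after 14 days, and the call was lost. DESeq2 gave 0.72 after 14 days in the Cd142+ class (adjusted p = 0.34 over the 3 groups TN, 3D and 14D). The Icam1+ call was near the threshold and was lost without the young 3D (0.055), young 14D (0.096) or aged 14D (0.0501) library. In the Icam1+ cluster with 3 markers alone, the change after 14 days was 0.15 (adjusted p = 0.25 over the 3 groups). Meg3 in Icam1+ preadipocyte-like cells fell just short, at -0.42 (SE 0.12) and -0.62 (SE 0.12) (adjusted p = 0.051), and passed in 11 of 15 alternatives. In Dpp4+ fibroblast-like cells no member passed, the lowest adjusted p being 0.23, where 6.92% of all genes did. None passed in endothelial-like cells (1.1% of all genes) or SMC/pericyte-like cells (0.191%), where Dlk1 was nearest, at -1.18 (SE 0.21) and -1.22 (SE 0.22) (adjusted p = 0.052).

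**Figure D4:**
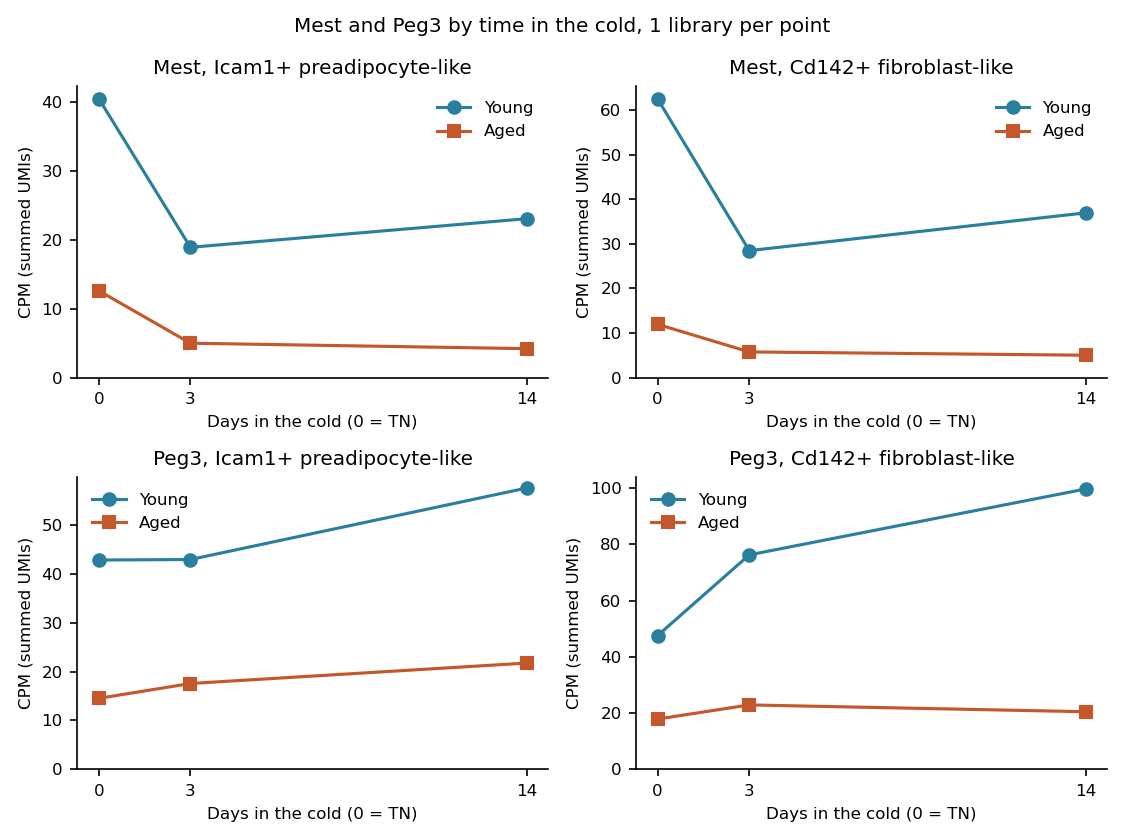
CPM of Mest (top) and Peg3 (bottom) in Icam1+ preadipocyte-like (left) and Cd142+ fibroblast-like cells (right) on the y axis against days at 6 °C (x axis, 0 for TN); each point is 1 library, blue circles young and orange squares aged, joined by lines. Mest is highest at TN in both classes and ages, and Peg3 in young Cd142+ cells climbs from 47.5 to 99.7 CPM, while aged Cd142+ cells stay between 17.8 and 22.8 CPM.

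Whether cold acted differently at the 2 ages was tested with the 2 cold libraries of an age set against its TN library. No member passed in any class. By edgeR's quasi-likelihood test, 0% of all genes passed in the Dpp4+, Icam1+, Cd142+ and SMC/pericyte-like classes. Before adjustment, 315 of 13822, 425 of 13954, 294 of 11683 and 748 of 10442 genes tested had p under 0.05, in that order. With no interaction at all, a share of 0.05 would be expected to do so. The Dpp4+, Icam1+ and Cd142+ classes lay below that share and the SMC/pericyte-like class above it. The error of this test comes only from the spread between the 2 cold libraries of an age. Any effect of the time spent in the cold therefore counts as noise in it. For this reason neither the lack of calls nor a low share is read as absence of an interaction. In endothelial-like cells 1 gene passed (0.0084%). Peg3 in the Cd142+ class gave -0.60 (SE 0.31, adjusted p = 1.00) and Mest -0.20 (SE 0.36, adjusted p = 1.00).

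The age differences of 5 members were present in each large cluster within the classes. The Icam1+ cluster with only 3 markers, led by Scg3, Tfpi2 and Cyp26b1, held Meg3 at 1084, 1002 and 1059.7 CPM (young TN, 3D and 14D) and 244, 187 and 165 CPM (aged TN, 3D and 14D), and the one with 8 of 10 markers held 1114, 843 and 727 CPM (young TN, 3D and 14D) and 338, 226 and 164 CPM (aged TN, 3D and 14D). Cdkn1c was 30.1 to 37.0 CPM in young and 61.9 to 71.0 CPM in aged libraries in the first and 20.6 to 29.6 and 63.4 to 77.1 CPM in the second. Of the 2 large Dpp4+ clusters, the bigger (15459 cells) had Meg3 at 1780.0 to 2185 CPM in young and 338 to 448 CPM in aged libraries, and the smaller (6232 cells) at 2628 to 2955 and 839 to 958 CPM. The smaller cluster kept more Meg3 in aged mice, with log2 fold changes of -1.64 against -2.33. Young and aged values stayed apart in all 4 clusters for Meg3, Mirg, Mest, Peg3 and Plagl1.

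Of 43 other imprinted genes, 41 had a row, and most of those tested did not pass for age. In Dpp4+ fibroblast-like cells 7 of 32 tested were lower and 3 higher in aged mice at an adjusted p under 0.05, with a median log2 fold change of -0.056. The counts were 6 lower and 1 higher of 32 in the Icam1+ class and 5 and 0 of 28 in the Cd142+ class, against the shares of all genes given above, and 1 lower of 27 in endothelial-like and 0 of 24 in SMC/pericyte-like cells. Slc38a4, a paternally expressed amino acid transporter of placenta and liver, changed by log2 fold changes of -2.50 (SE 0.11, adjusted p = 6.6e-07), -2.66 (SE 0.22, adjusted p = 0.00041) and -2.41 (SE 0.46, adjusted p = 0.0029) in the Dpp4+, Icam1+ and Cd142+ classes. Its Dpp4+ level was 16.8, 22.9 and 18.9 CPM (young TN, 3D and 14D) and 2.67, 4.80 and 2.86 CPM (aged TN, 3D and 14D). Zim1, a maternally expressed zinc finger gene beside Peg3, changed by -2.49 (SE 0.49, adjusted p = 0.006), -2.01 (SE 0.16, adjusted p = 0.00034) and -1.52 (SE 0.38, adjusted p = 0.017). Grb10, a maternally expressed brake on insulin and growth factor receptors, changed by -0.53 (SE 0.08, adjusted p = 0.0013), -0.35 (SE 0.061, adjusted p = 0.0086) and -0.49 (SE 0.09, adjusted p = 0.0024). In the Dpp4+ and Icam1+ classes, Peg10 changed by -0.62 (SE 0.11, adjusted p = 0.0043) and -0.40 (SE 0.082, adjusted p = 0.018), and Ppp1r9a by -0.57 (SE 0.078, adjusted p = 0.00073) and -0.61 (SE 0.14, adjusted p = 0.029).

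Dio3, the thyroid hormone deiodinase at the far end of the Meg3 locus, had opposite directions in different classes. It was scarce and higher in aged mice in the Dpp4+ class (log2 fold change 2.94, SE 0.61, adjusted p = 0.0083) and in the Icam1+ class (log2 fold change 1.03, SE 0.19, adjusted p = 0.011). In Cd142+ fibroblast-like cells, where it was highest at 13.2, 9.02 and 21.0 CPM (young TN, 3D and 14D) and 8.78, 6.72 and 6.09 CPM (aged TN, 3D and 14D), it was lower (log2 fold change -0.87, SE 0.23, adjusted p = 0.022). The difference of the age effect between the Cd142+ and the Dpp4+ class was -3.85 (SE 0.60, adjusted p = 0.0014). Rtl1, a retrotransposon-derived gene of the locus that is also paternally expressed, was lower in the Dpp4+ class (log2 fold change -2.21, SE 0.56, adjusted p = 0.021) and is named after its values were seen. The same locus thus held Meg3, Mirg and Rtl1 lower and Dio3 higher in aged Dpp4+ fibroblast-like cells.

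Of 12 genes of a fetal growth programme, 3 of 7 tested were lower in the Dpp4+ class, 2 of 7 in the Icam1+ class and 1 of 5 in the Cd142+ class, with none higher, where 18.2%, 13.3% and 11.8% of all genes passed in either direction. Nothing is read from counts this small, and Gpc3, 1 of the genes in each count, was known to be lower. Gpc3 alone passed in endothelial-like cells and none in SMC/pericyte-like cells. Gpc3, a glypican that restrains hedgehog and growth signals, was lower in all 3, at 375, 451 and 385 CPM (young TN, 3D and 14D) and 102, 124 and 135 CPM (aged TN, 3D and 14D) in Dpp4+ fibroblast-like cells. Its log2 fold changes were -1.75 (SE 0.078), -2.04 (SE 0.19) and -1.33 (SE 0.14), given without a test because its lower level in aged mice was known when the list was made. E2f3, a cell cycle factor, fell in the Dpp4+ (log2 fold change -0.71, SE 0.15, adjusted p = 0.0088) and Icam1+ (log2 fold change -0.63, SE 0.12, adjusted p = 0.015) classes. Among 11 genes that set or keep imprints, such as the DNA methyltransferases and Trim28, 2 of 10, 1 of 10 and 0 of 9 passed in the 3 classes, all lower, and none in the other 2 classes. These shares are close to or below those of all genes just given. Tet1, which starts the removal of methyl marks from CG pairs, was 3.81, 3.19 and 4.14 CPM (young TN, 3D and 14D) and 1.28, 1.02 and 0.954 CPM (aged TN, 3D and 14D) in the Dpp4+ class (log2 fold change -1.77, SE 0.18, adjusted p = 9.4e-05) and also fell in the Icam1+ class (log2 fold change -0.77, SE 0.18, adjusted p = 0.03). In the cold, 1, 3 and 0 of 32, 32 and 28 other imprinted genes tested passed in the Dpp4+, Icam1+ and Cd142+ classes, where 6.92%, 4.45% and 2.72% of all genes did (Ndn in the first; Ndn, Nnat and Peg10 in the second).

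**Figure D5:**
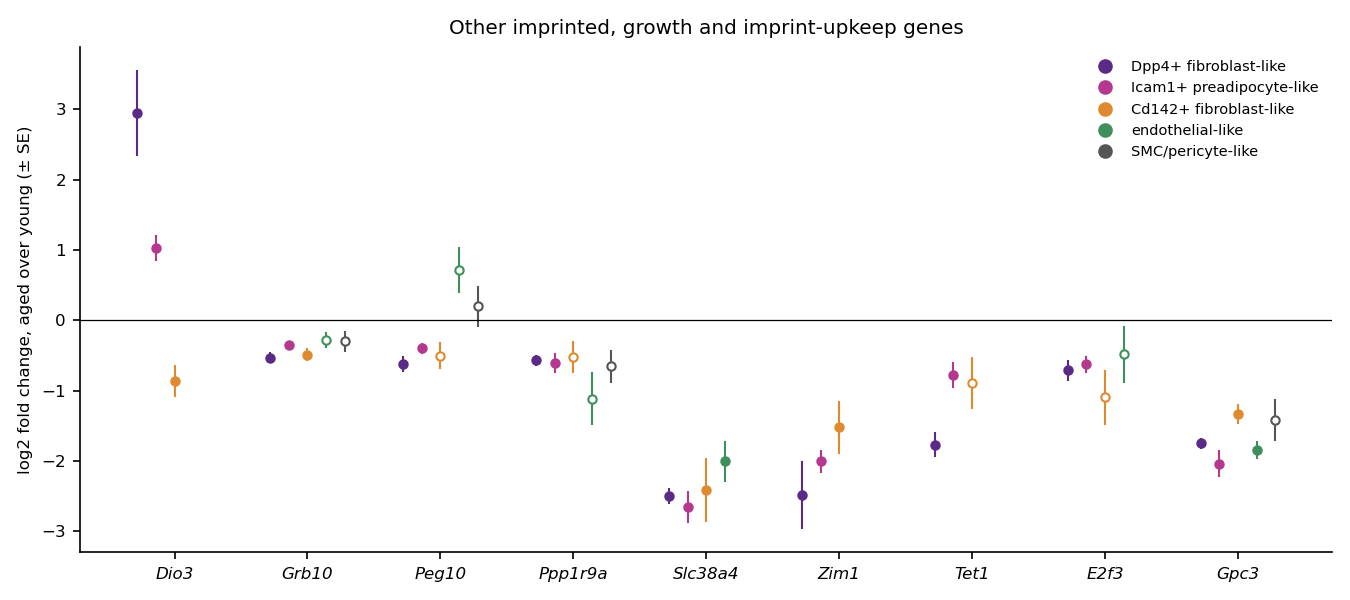
Log2 fold change, aged over young, with its standard error (y axis) for the 9 genes of the other lists that passed in at least 2 fibroblast-like classes (x axis); filled points have an adjusted p under 0.05, open ones do not (for Gpc3, known beforehand, the fill is no test), and colours mark the classes. Slc38a4, Zim1 and Gpc3 lie below -1 in all 3 fibroblast-like classes, and Dio3 lies above 0 in the Dpp4+ and Icam1+ classes and below 0 in the Cd142+ class.

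Over the 18 fibroblast-like sums (3 classes by 6 libraries), the genes whose log2(CPM + 1) ran most like that of Meg3 among 5517 with a mean of at least 20 CPM were Cercam (Pearson r = 0.948), Tmem45a (0.924), Lrp10 (0.922), Akt2 (0.897) and Golim4 (0.895). The sums share libraries, and r follows both the age difference and the higher Dpp4+ level. Among members, Mirg had r = 0.947 and Plagl1 0.860, while Peg3 had 0.328 and Mest 0.167, whose levels were lowest in the Dpp4+ class.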

How the data were processed

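UMI counts per gene and cell barcode of the 6 libraries were used as deposited. Per the file headers and the study's methods, the authors made these counts with Cell Ranger 3.1.0 from 10x Chromium 3′ libraries aligned to mm10 and kept the barcodes called as cells, and their later normalization and integration are not in the files. Total counts per library were 52068837 to 88508349 UMIs. Barcodes with over 200 genes and within 3 median absolute deviations of their library's median log10 UMIs and genes, and not above that limit in mitochondrial share, were kept, and no doublet caller was run. Cells were clustered without the member genes (Python 3.11.15, scikit-learn 1.9.0, leidenalg 0.10.2; 6000 variable genes, 15 components, 20 neighbours, resolution 0.5), and a cluster was named where at least 3 markers of a type were detected.

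UMIs summed per class and library were fitted with edgeR 4.0.16 in R 4.3.3 (TMM, filterByExpr, quasi-likelihood test) with age and temperature as terms, and p-values were adjusted by Benjamini-Hochberg over all genes tested. The age by cold interaction and the difference of the age effect between classes, with library as a block, were fitted likewise. The fits were tested on simulated data. Fold changes are log2 with the standard error from the fit. Alternatives were DESeq2 1.42.0, RLE factors, no filter on low counts, a missing covariate, cells gated one by one by summed markers, resolution 1.0, equal cells drawn to 2000 UMIs, single clusters (added after seeing the data), and each library left out. The gate also placed cells of the unnamed clusters. In the aged 14D library it gave 1747 Cd142+ cells against 666 by clusters, and 908 SMC/pericyte-like cells against 159. Named genes were all members, the genes of 3 lists (43 other imprinted genes, 12 of a fetal growth programme, 11 that set or keep imprints) that passed for age in at least 2 fibroblast-like classes, and the 5 genes most like Meg3. Members and lists were chosen with earlier results of these data known. Rian and, of the other imprinted genes, Peg13 and Zim2 were not analysed here.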

Additional observations from a re-analysis of the deposited data

Results flagged for a closer look

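The age effect of 4 members differed between cell classes by the test of the difference itself, which is what marks them here. For Cdkn1c it was higher by 1.25 (SE 0.088, adjusted p = 0.00032) in Icam1+ preadipocyte-like than in Dpp4+ fibroblast-like cells and by 0.90 (SE 0.11, adjusted p = 0.00012) in Cd142+ than in Dpp4+ fibroblast-like cells. It was lower in endothelial-like than in Icam1+ preadipocyte-like cells, by -0.74 (SE 0.14, adjusted p = 0.022). For Plagl1 the difference was -0.37 (SE 0.072, adjusted p = 0.033) in the Icam1+ and -0.63 (SE 0.13, adjusted p = 0.016) in the Cd142+ class, each against the Dpp4+ class. For SMC/pericyte-like against Icam1+ preadipocyte-like cells it was 1.33 (SE 0.15, adjusted p = 0.0015) for Meg3 and 1.78 (SE 0.23, adjusted p = 0.0061) for Peg3. All are log2 values by edgeR's quasi-likelihood test, and only the first 2 of Cdkn1c and that of Meg3 passed under all 7 alternatives. The members were picked on their age effect, so these tests are not fully independent of that choice, least of all for Meg3.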

How the results depend on the processing

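The age effects of members kept their direction under all alternatives run, except Cdkn1c in the Dpp4+ (-0.086 to 0.075) and SMC/pericyte-like class (-0.039 to 0.40) and Dlk1 (-1.05 to 1.86) and Plagl1 (-1.42 to 0.56) in endothelial-like cells. The number of genes called for age was Dpp4+ 2435 (1333 to 2482 without 1 library, 1358 with DESeq2, 763 with no temperature term, 1249 with equal cells drawn down, 1080 in 1 cluster alone), Icam1+ 1791 (882 to 2330 without 1 library, 1016 with DESeq2, 284 with no temperature term, 775 with equal cells drawn down, 1119 in 1 cluster alone), Cd142+ 1329 (707 to 1160 without 1 library, 468 with DESeq2, 466 with no temperature term, 537 with equal cells drawn down), endothelial-like 243 (71 to 745 without 1 library, 71 with DESeq2, 755 with no filter, 46 with no temperature term, 25 with gated cells, 86 at resolution 1.0, 94 with equal cells drawn down), SMC/pericyte-like 16 (6 to 198 without 1 library, 236 with no filter, 0 with no temperature term, 0 with gated cells, 25 at resolution 1.0). The number called for temperature was Dpp4+ 924 (348 to 1534 without 1 library, 2435 with no filter, 0 with no age term, 586 with equal cells drawn down), Icam1+ 599 (388 to 2055 without 1 library, 1899 with no filter, 0 with no age term, 975 at resolution 1.0), Cd142+ 306 (153 to 942 without 1 library, 147 with DESeq2, 778 with no filter, 1 with no age term, 131 with equal cells drawn down), endothelial-like 125 (56 to 532 without 1 library, 63 with DESeq2, 631 with no filter, 10 with no age term, 22 with gated cells), SMC/pericyte-like 19 (0 to 488 without 1 library, 31 with DESeq2, 473 with no filter, 1 with no age term, 0 with gated cells, 3 at resolution 1.0, 49 with equal cells drawn down). The interaction called, without 1 cold library, 0 to 0 (Dpp4+), 0 to 0 (Icam1+), 8 to 29 (Cd142+), 10 to 128 (endothelial-like), 77 to 189 (SMC/pericyte-like) genes. Differences of the age effect called Icam1+ minus Dpp4+ 284 (87 to 267 without 1 library, 194 with gated cells), Cd142+ minus Dpp4+ 270 (142 to 270 without 1 library, 135 with gated cells), Cd142+ minus Icam1+ 263 (107 to 275 without 1 library, 86 with gated cells), endothelial-like minus Icam1+ 123 (53 to 138 without 1 library, 38 with gated cells), SMC/pericyte-like minus Icam1+ 25 (5 to 50 without 1 library, 10 with gated cells) genes. Beside lost calls given with the results, the temperature call of Peg3 was lost with gated cells (adjusted p = 0.078 in the Icam1+ and 0.13 in the Cd142+ class) and with equal cells drawn down (0.079 and 0.085), and those of Mest and Peg3 with no age term. The change of H19 after 14 days in Icam1+ preadipocyte-like cells was 0.43, -0.20 to 2.86 without 1 library, and -0.034 without the aged TN library. Alternatives to member results that had not passed did pass 47 times for temperature, most often for Dlk1, Meg3 and H19, 6 times for class differences and 4 times for the interaction (Plagl1 and Dlk1 in endothelial-like cells). The cause was not tested. No paired analysis was possible because each age and temperature has 1 library, so that no replicate number pairs libraries, and the temperature term of the age fit sets young and aged libraries of a temperature side by side. H19 and Dlk1 rest on few cells and Igf2 on at most 4 UMIs per class and age.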
